A study of Homo sapiens with 6 samples.

Results

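The cytosolic ribosomal protein genes were read on 6 whole-transcript arrays of MDA-MB-231 cells, an established human triple-negative breast cancer line. Members were taken by gene symbol: RPL or RPS followed by a digit, or RPLP0, RPLP1, RPLP2 or RPSA, without the RPS6K kinases and without symbols that end in P and digits. The rule found 55 genes among the 16965 probe sets of the table, with 1 probe set each: 21 of the small subunit and 34 of the large subunit. Of the 55, 42 are core ribosomal proteins (17 small, 25 large), 10 are paralogs such as RPL22L1, and 3 are read-through symbols that join a ribosomal protein gene to its neighbour. No probe set carried the symbols RPLP0, RPLP2, RPSA or RPL5, so they could not be read here and the set is incomplete. No probe set had a coefficient of variation over 50% between replicate arrays. Members with wider spreads would therefore be missing from the counts and medians below. Whether the absent genes are missing for that reason was not tested.

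Every group expressed a short hairpin RNA delivered by lentivirus, with 2 arrays in each of 3 groups: shS100A10_5 and shS100A10_1, 2 hairpin sequences against S100A10, and the control hairpin shNCT. All groups grew in RPMI1640 with 10% serum and 2.5 µg/ml puromycin. The labels give neither a pool or clone of transduced cells nor separate cultures behind the 2 arrays of each group, so the p-values cover the spread among these 6 arrays alone, and that spread may be technical. Values are normalized intensities, given as log2, and a difference of 1 on that scale is a 2-fold difference.

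The ribosome is built from a small subunit, which reads the mRNA, and a large subunit, which joins amino acids and carries the exit tunnel and the flexible stalk. Most of the proteins are needed in equal number, and cells coordinate the genes in part through translation. Their transcripts start with a cytosine followed by an unbroken run of pyrimidines, the 5′ terminal oligopyrimidine (TOP) motif, through which mTORC1 and LARP1 adjust their translation. Proteins made in excess of assembled ribosomes can act elsewhere, as when free RPL11 binds the p53 inhibitor MDM2.

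The genes share this start. RefSeq promoters (GRCh38.p14, 250 bases before the annotated start and 50 from it) matched 48 of the 55 members and 38 of the 42 core genes. A C at the start followed by at least 4 C or T was found in 29 of those 38 core genes (76.3%), in 2 of 8 paralogs, and in 1404 of all 27305 genes of the promoter table (5.14%). The letters CCGGAA, the core of sites for ETS-family factors, lay on either strand in 24 of 38 core genes (63.2%), against 20.1% of all genes. AAGATGGC, part of the YY1 site, lay in 3 of 38 (7.89%, against 3.52%), and the TATA-box letters TATAAA in 0 of 38, against 14.0%. All 3 were searched on both strands, and matches can overlap, since CCGGAA ends with the letters with which AAGATGGC begins. A match is a description of these letters, not a site.

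Windows from 40 bases before the start to 19 after it are shown for the core genes with such a start and 1 promoter entry that had the most negative changes with shS100A10_5 (RPS14, RPLP1, RPL29 and RPL36A), for those nearest 0 (RPS23, RPS25, RPS24 and RPL14), and for the paralog RPL22L1. Capitals mark the pyrimidine run that begins at the annotated start.
RPS14, chr5:150449720-150449779, minus strand: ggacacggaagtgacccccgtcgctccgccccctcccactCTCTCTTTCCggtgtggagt
RPLP1, chr15:69452778-69452837, plus strand: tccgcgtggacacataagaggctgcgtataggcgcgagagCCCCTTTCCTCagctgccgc
RPL29, chr3:51995876-51995935, minus strand: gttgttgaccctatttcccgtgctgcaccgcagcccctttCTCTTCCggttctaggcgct
RPL36A, chrX:101390971-101391030, plus strand: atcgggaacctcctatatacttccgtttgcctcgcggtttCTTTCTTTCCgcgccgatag
RPS23, chr5:82278335-82278394, minus strand: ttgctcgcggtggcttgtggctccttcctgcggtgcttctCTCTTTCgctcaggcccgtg
RPS25, chr11:119018324-119018383, minus strand: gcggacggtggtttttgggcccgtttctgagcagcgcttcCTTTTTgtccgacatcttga
RPS24, chr10:78033823-78033882, plus strand: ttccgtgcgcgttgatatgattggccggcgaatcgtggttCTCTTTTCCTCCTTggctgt
RPL14, chr3:40457299-40457358, plus strand: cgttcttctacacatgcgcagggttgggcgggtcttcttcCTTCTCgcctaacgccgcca
RPL22L1, chr3:170870176-170870235, minus strand: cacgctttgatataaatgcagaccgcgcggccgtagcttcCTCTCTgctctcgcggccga
The runs were 10, 11, 7 and 10 bases long in the first 4 genes and 7, 6, 14 and 6 in the next 4. A relation of run length to the change was not tested. With shS100A10_5 the 29 core genes with a pyrimidine start had a median log2 change of -0.25 (27 negative). The 9 without it had a median of -0.36 (9 negative), and 46.7% of all probe sets were negative. For shS100A10_5 minus shS100A10_1 these medians were -0.22 and -0.21, and for shS100A10_1 against shNCT 0.02 and -0.06.

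S100A10 itself was read first. Its log2 intensity was 13.73 and 13.21 with shS100A10_5 and 10.94 and 10.59 with shS100A10_1, against 16.44 and 16.50 with shNCT, so it fell with both hairpins, to 8.02-fold and 52.1-fold lower levels (limma, adjusted p = 0.000442 and 1.71e-06). Median intensity of all probe sets lay between 232 and 238 on the 6 arrays. Of the marker genes of the line, VIM averaged 16.39, 16.56 and 16.50 log2 with shS100A10_5, shS100A10_1 and shNCT, while SPARC (4.16, 4.02 and 4.30) lay below 4.98, the lower quartile of probe set means. The 3 of 6 luminal markers that were measured summed to intensities of 189 to 192, 194 to 210 and 170 to 229 in those groups, and CDH1 averaged 3.68, 3.32 and 3.78 log2. The fibroblast and endothelial markers (4 of 6 measured) summed to 215 to 218, 165 to 168 and 170 to 177, and the leukocyte and blood markers (5 of 6 measured) to 4581 to 6040, 7598 to 8043 and 6425 to 6702, most of it CD68. CD68 had a log2 change of -0.36 with shS100A10_5 and 0.24 with shS100A10_1 (limma, adjusted p = 0.313 and 0.809), while 4 of the 5 were higher than shNCT with each hairpin (medians 0.25 and 0.24). Of these LYZ, the lysozyme gene, rose with both, by 1.35 and 1.56 (adjusted p = 0.00865 and 0.00869). The part of these in the results below was not tested.

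With shS100A10_5 the ribosomal protein genes were mostly lower than with shNCT, by small amounts. The log2 change was negative for 49 of 55 genes, against 46.7% of all probe sets, with a median of -0.22 (1.17-fold lower) against 0.02 over all 16965 probe sets. The small subunit had a median of -0.24 (19 of 21 negative) and the large subunit one of -0.18 (30 of 34 negative). In 34 of the 55 genes both shS100A10_5 arrays lay below both shNCT arrays, against 23.8% of all probe sets; in 1, RPL17-C18orf32, both lay above (26.7% of all).

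No single gene passed the threshold. By limma with Benjamini-Hochberg adjustment over all probe sets, 0 of 55 had an adjusted p under 0.05, while 3.18% of all probe sets did; the lowest among the 55 was 0.0567. At an unadjusted p under 0.05, 9 of 55 were lower and 0 higher, against 10.3% and 10.7% of all probe sets. The 9 moved both down and up with the array left out, and became 23 when the variance prior followed intensity. That prior also raised the count of all probe sets past the adjusted threshold from 539 to 1454. No share of all probe sets was taken at an unadjusted p in these settings, so the moved counts have none beside them. In the fit of all arrays the 9 were 8 of 34 large subunit genes (23.5%) and 1 of 21 small subunit genes (4.76%). For shS100A10_5 minus shS100A10_1 the counts were 5 of 34 and 3 of 21 (14.7% and 14.3%, against 9.8% of all probe sets). The standard error of a change lay between 0.17 and 0.25. On arrays of bulk RNA, fewer cells with a transcript and less transcript per cell cannot be told apart.

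**Figure D1:**
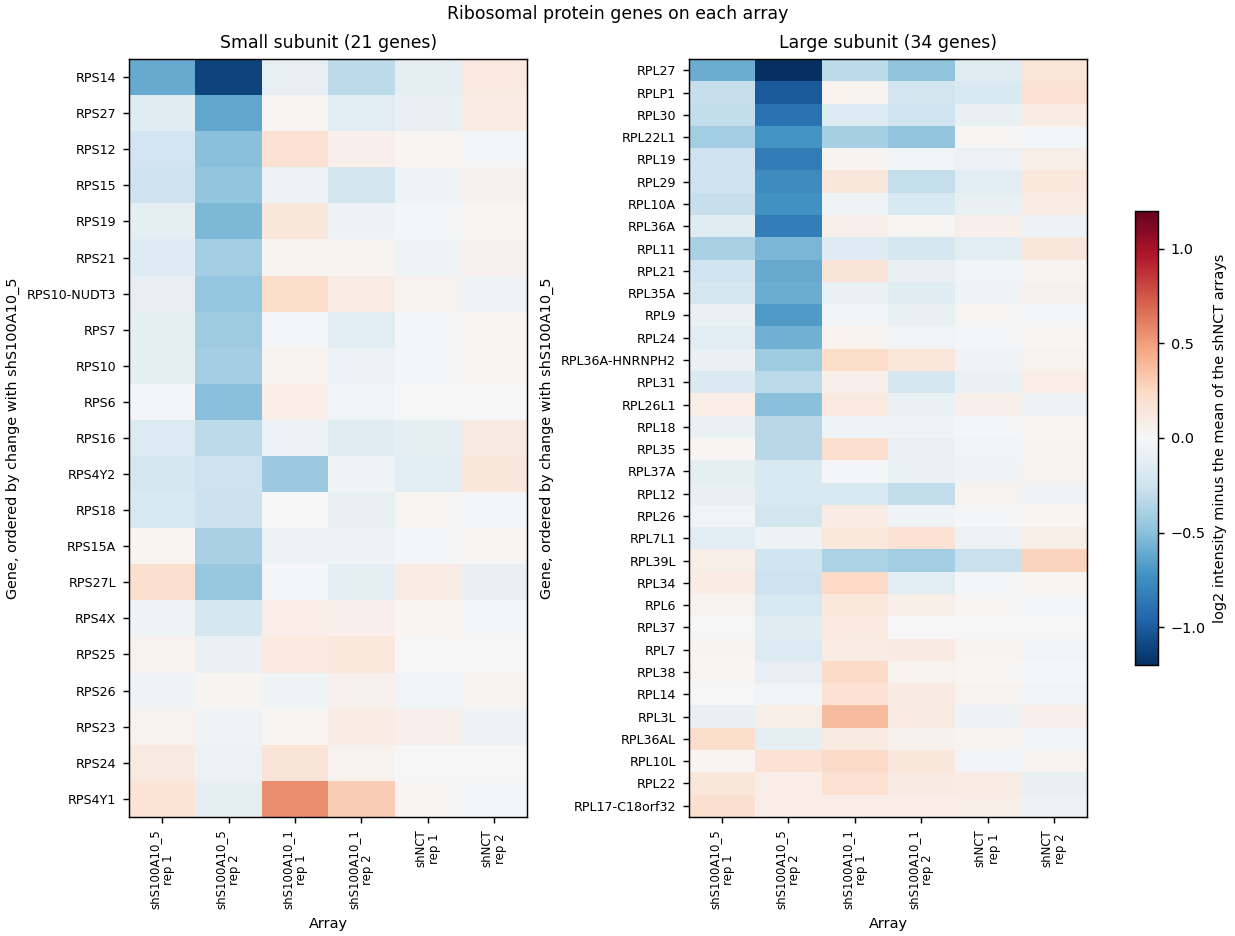
Log2 intensity of each of the 55 genes on each array minus that gene's mean over the 2 shNCT arrays (colour), with small subunit genes on the left, large subunit genes on the right, and genes ordered by their change with shS100A10_5. The column of shS100A10_5 replicate 2 is the most negative, and the few genes at the bottom of each panel stay near 0 on it.

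The shift was carried unequally by the 2 shS100A10_5 arrays. The median deviation of the 55 genes from the shNCT mean was -0.09 on shS100A10_5 replicate 1 and -0.33 on replicate 2, against -0.02 and 0.02 on the shNCT arrays. Replicate 2 lay below both controls for 46 genes and above both for 3, against 36.8% and 43.1% of all probe sets. Replicate 1 lay below for 37 and above for 13, against 36.7% and 39% of all. Without replicate 2 the median change was -0.09, and 38 of 55 genes were negative; without replicate 1 it was -0.33. The same genes also moved together between arrays of 1 group: replicate 2 was lower than replicate 1 for 51 of 55 genes with shS100A10_5 (median difference -0.28) and for 47 with shS100A10_1 (-0.09), and for 20 with shNCT (0.04). Over all probe sets those shares were 47.5%, 47.1% and 49.7%.

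**Figure D2:**
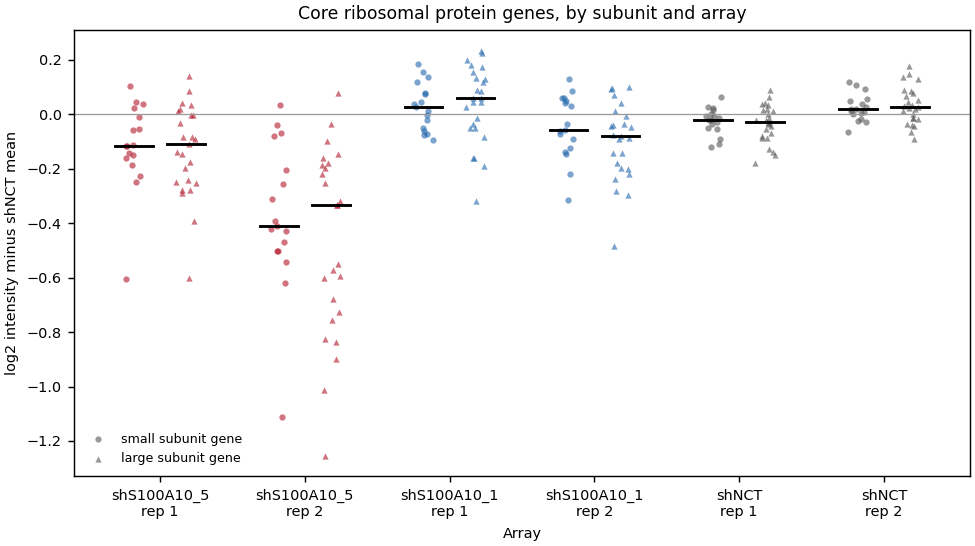
Deviation of the 42 core genes from their shNCT mean (log2) on each array, with circles for small subunit and triangles for large subunit genes, and bars at the medians. The medians of both subunits sit near -0.1 on shS100A10_5 replicate 1 and lie at -0.41 (small) and -0.33 (large) on replicate 2, while the other 4 arrays stay between -0.08 and 0.06.

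In the small subunit, RPS14, a platform protein whose single-copy loss underlies the anaemia of the 5q- syndrome, was lowest. Its log2 intensity was 12.63 and 12.12 with shS100A10_5 and 13.14 and 12.92 with shS100A10_1, against 13.12 and 13.36 with shNCT. The shS100A10_5 arrays did not overlap either other group, and the change against shNCT was -0.86 (SE 0.21; limma, adjusted p = 0.0567), or 1.81-fold lower. That change was -0.60 without shS100A10_5 replicate 2 and -1.11 without shS100A10_5 replicate 1. RPS27, a zinc-finger protein, read 15.88 and 15.40 with shS100A10_5 against 15.93 and 16.11 with shNCT, a change of -0.38 (limma, adjusted p = 0.315). RPS12 read 14.53 and 14.25 against 14.78 and 14.73, a change of -0.36 (adjusted p = 0.273). In both genes the shS100A10_5 arrays lay below the controls, but by less than the fit could separate.

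RPS6, the substrate of S6 kinase, read 15.26 and 14.76 with shS100A10_5, 15.34 and 15.23 with shS100A10_1 and 15.27 on both shNCT arrays. Only replicate 2 of shS100A10_5 stood clearly below (change -0.26; limma, adjusted p = 0.505). RPS19 and RPS26 are both genes of Diamond-Blackfan anaemia. RPS19 had a change of -0.33 (limma, adjusted p = 0.367), with 15.31 and 14.89 against 15.41 and 15.45, while RPS26 had one of -0.01, with 15.76 and 15.85 against 15.77 and 15.85. RPS23, a decoding-centre protein, RPS25, needed by some viral internal ribosome entry sites, and RPS24 also lay within 0.02 of 0. The small subunit genes RPS10 (-0.26), RPS15 (-0.36) and RPS4X (-0.13) lay in between.

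In the large subunit, RPL27 was lowest. Its log2 intensity was 12.27 and 11.61 with shS100A10_5 and 12.55 and 12.38 with shS100A10_1, against 12.72 and 13.02 with shNCT. No array of either hairpin reached the controls, and the shS100A10_5 change was -0.93 (SE 0.23; limma, adjusted p = 0.0598), or 1.90-fold lower, and -0.60 without replicate 2. RPLP1, an acidic protein of the stalk that recruits elongation factors, read 14.79 and 14.05 with shS100A10_5 against 14.89 and 15.24 with shNCT. Its change was -0.65 (SE 0.25; limma, adjusted p = 0.176), and it came mostly from replicate 2: without that array it was -0.28. RPL30 read 15.40 and 14.79 against 15.60 and 15.77, a change of -0.59 (adjusted p = 0.149), and -0.29 without replicate 2. RPL19 likewise had -0.54 (adjusted p = 0.178) with both arrays and -0.25 without replicate 2.

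RPL11, which with the 5S rRNA forms the particle that binds MDM2, was lower on both arrays by similar amounts. It read 15.52 and 15.37 with shS100A10_5 and 15.76 and 15.72 with shS100A10_1, against 15.78 and 16.05 with shNCT. The change was -0.47 (SE 0.18; limma, adjusted p = 0.166), and -0.39 without shS100A10_5 replicate 2. It depended more on the control arrays, being -0.33 without shNCT replicate 2 and -0.61 without shNCT replicate 1. RPL29 (-0.50), RPL10A (-0.50) and RPL36A (-0.49) had changes of this size too. At the other end RPL22, an RNA-binding protein of the ribosome surface, read 16.18 and 16.11 with shS100A10_5 against 16.13 and 15.95, a change of 0.11 (adjusted p = 0.762). RPL38, which in mice is needed for translation of Hox mRNAs, had -0.04, RPL14 -0.02, RPL7 -0.06, RPL26 -0.12, RPL12, a protein of the stalk base, -0.13, and RPL35 -0.16. The core genes of both subunits not named here had changes between -0.42 (RPL21) and -0.08 (RPL37), all negative.

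**Figure D3:**
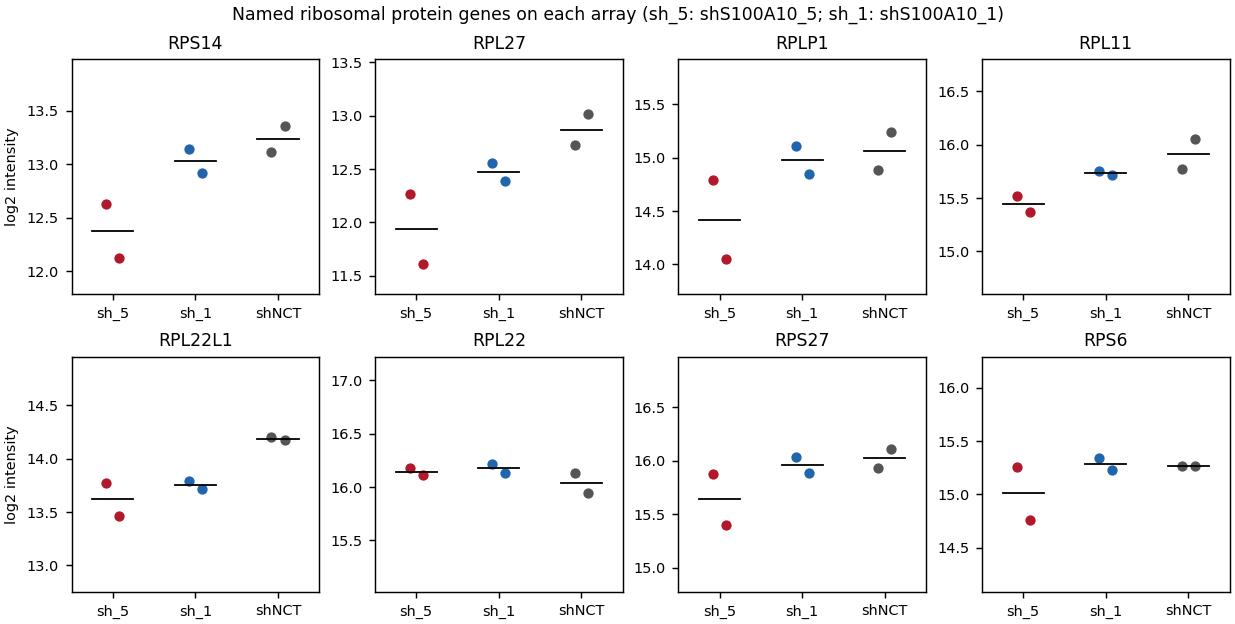
Log2 intensity of 8 genes on each array (points) with the group mean (bar), every panel spanning 2.2 log2 units. RPS14 and RPL27 show the lowest shS100A10_5 arrays, RPL22L1 lies lower with both hairpins than with shNCT, RPL22 overlaps between shS100A10_5 and shNCT with both shS100A10_1 arrays above shNCT, and RPS6 is low on 1 shS100A10_5 array.

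Among the core genes the change with shS100A10_5 was smaller where intensity was higher. The 11 genes with a mean log2 intensity under 15 had a median change of -0.49, the 18 between 15 and 16 one of -0.24, and the 13 at or above 16 one of -0.12. Over all probe sets the medians were 0.04 between 12 and 15 (2160 probe sets), -0.01 between 15 and 16 (191) and -0.02 at or above 16 (77). Spearman's rho between mean intensity and change over the 42 core genes was 0.73 for shS100A10_5 and 0.42 for shS100A10_1, across genes that share the same arrays. Intensity depends on probe affinity as well as abundance.

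**Figure D4:**
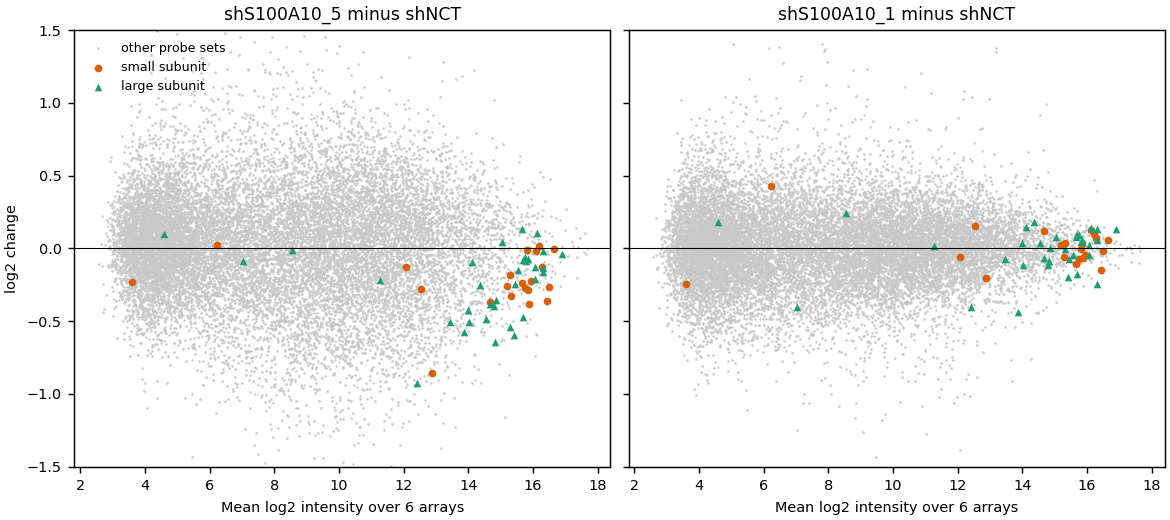
Log2 change against mean log2 intensity for every probe set (grey), small subunit (circles) and large subunit genes (triangles), for shS100A10_5 minus shNCT on the left and shS100A10_1 minus shNCT on the right. Most ribosomal protein genes lie at the bright end, below 0 on the left and around 0 on the right; the axis stops at -1.5 and 1.5, which leaves out 35 and 18 other probe sets.

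The members also share short genes. Their median gene span was 5243 bp against 26641 bp over 15670 named probe sets, and 54 of 55 were shorter than that median. Across genes, longer spans went with higher deviations on shS100A10_5 replicate 2 (Spearman's rho 0.25, a deviation being taken from a probe set's mean over the 6 arrays). The same rho was 0.04 on replicate 1, between -0.21 and -0.01 on the shS100A10_1 arrays, and -0.14 and -0.06 on the shNCT arrays. After each array was corrected for this relation, an alternative added once the data had been seen, the 55 genes had a median change of -0.17 with shS100A10_5, with 42 negative and 13 positive. The small subunit then had a median of -0.18 and the large subunit one of -0.11. The part of gene span in the result was otherwise not tested.

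With shS100A10_1 the ribosomal protein genes showed no common shift against shNCT. The log2 change was negative for 26 and positive for 29 of 55 genes (49% and 51% of all probe sets), with a median of 0.02 against 0.01 over all probe sets. The small subunit had a median of -0.001 and the large subunit one of 0.02; the sign of the median over all 55 turned under quantile (-0.01) and cyclic loess normalization (-0.01). By limma, 0 of 55 passed the adjusted threshold, against 0.189% of all probe sets. At an unadjusted p under 0.05 there was 1 lower (RPL22L1) and 1 higher (RPS4Y1), against 4.16% and 4.28% of all. RPS4Y1, annotated to the Y chromosome, read only 6.65 and 6.39 log2 against 6.10 and 6.07 with shNCT. Signal this dim cannot be told from background here. Both arrays lay below both controls for 11 genes (20.5% of all probe sets) and above for 17 (21.9%). The array medians were 0.06 and -0.05 relative to the shNCT mean, on either side of the controls.

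The most negative core genes with shS100A10_1 were RPL27 (-0.40; limma, adjusted p = 0.708), RPL12 (-0.24; 0.768), RPS14 (-0.20; 0.870), RPL30 (-0.20; 0.881), RPL11 (-0.18; 0.866) and RPS15 (-0.15; 0.895). On the positive side stood RPL22 (0.14), RPL38, RPL14 and RPS25 (0.13 each). None of them passed the threshold.

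Set against each other, the hairpins differed too, most genes being lower with shS100A10_5; this comparison shares the shS100A10_5 arrays with the one against shNCT. The difference, shS100A10_5 minus shS100A10_1, was negative for 51 of 55 genes against 48% of all probe sets, with a median of -0.20 against 0.02. Without shS100A10_5 replicate 2 the median was -0.09, and without shS100A10_5 replicate 1 it was -0.32. Both shS100A10_5 arrays lay below both shS100A10_1 arrays for 32 genes, against 23.4% of all probe sets, and above them for 2, RPL12 and RPL39L (25.6% of all). By limma 0 of 55 passed (2.91% of all), the lowest adjusted p being 0.125, for RPS14 (-0.65). At an unadjusted p under 0.05, 8 were lower and 0 higher, against 9.8% and 10.1% of all. That count moved both down and up with the array left out, and no share of all probe sets was taken there. RPLP1 (-0.56), RPL19 (-0.54), RPL27 (-0.53), RPL36A (-0.52), RPS12 (-0.49) and the read-through RPS10-NUDT3 (-0.43) were among the most negative. Against shNCT, the mean of both hairpins gave 0 of 55 (0.307% of all) and 3 lower at an unadjusted p under 0.05: RPS14, RPL27 and RPL22L1 (6.95% of all). This count of 3 also moved both down and up with the array left out.

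The 55 genes held 4.98% and 4.15% of the summed intensity of all probe sets on the shS100A10_5 arrays, 5.38% and 4.97% on the shS100A10_1 arrays, and 5.14% and 5.26% on the shNCT arrays. The shS100A10_5 arrays thus lay below the controls, and replicate 1 was as high as the lower shS100A10_1 array.

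Paralogs and read-through symbols were considered apart, because their probes may share sequence with the core gene. RPL22L1, which can replace RPL22 in the ribosome, was lower at an unadjusted p under 0.05 with each hairpin; with shS100A10_1 this was lost without shNCT replicate 2 and without either shS100A10_1 array. It read 13.77 and 13.47 with shS100A10_5 and 13.79 and 13.72 with shS100A10_1, against 14.21 and 14.17 with shNCT. No hairpin array reached the controls, and the changes were -0.57 (SE 0.18; limma, adjusted p = 0.105) and -0.43 (adjusted p = 0.539), against the same 2 control arrays. Its partner RPL22 had changes of 0.11 and 0.14.

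In the other pairs, RPS27L, a p53 target, had a change of -0.13 with shS100A10_5 and RPS27 one of -0.38. RPL36AL had 0.04 and RPL36A -0.49, although their proteins are nearly identical and their signals may not be separable. RPL26L1 had -0.21 beside -0.12 for RPL26, and RPL7L1 -0.09 beside -0.06 for RPL7. RPL39L (-0.09), RPL3L (-0.01) and RPL10L (0.10), known from testis or, for RPL3L, striated muscle, and the RPS4X paralogs RPS4Y1 (0.02) and RPS4Y2 (-0.23) were dim, with log2 intensities under 9 on every array. Of the read-through symbols, RPS10-NUDT3 had -0.28 beside -0.26 for RPS10, RPL36A-HNRNPH2 had -0.25 beside -0.49 for RPL36A, and RPL17-C18orf32 had 0.14.

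Genes that work with the ribosome did not all follow it. Of all probe sets, 3.18% passed the adjusted threshold with shS100A10_5 and 0.189% with shS100A10_1. FAU, whose product is processed into a small subunit protein, was the 1 of 3 ribosomal proteins with other symbols that was measured. It averaged 12.68 log2 with shS100A10_5, 13.48 with shS100A10_1 and 13.32 with shNCT, a change of -0.63 with shS100A10_5 (limma, adjusted p = 0.163). A list of 16 measured TOP genes beyond the ribosome, 11 of them elongation or initiation factors and the others NAP1L1, HNRNPA1, NPM1, BTF3 and NACA, had a median of -0.02, with 1 lower past the threshold, EIF3K, a subunit of the initiation factor eIF3 (-0.79; limma, adjusted p = 0.05 when rounded). Of 16 genes of eIF4F, eIF2 and its exchange factor (median 0.01), EIF2B2 fell (-0.78; adjusted p = 0.0463). With shS100A10_1 those medians were 0.02 each, and 0 genes passed.

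Of 19 genes of mTORC1 and S6 kinase signalling, 1 fell with shS100A10_5, AKT1S1, which encodes the mTORC1 inhibitor PRAS40 (-0.86; limma, adjusted p = 0.0329), and the median was -0.24. For this list and those below, the share of all probe sets past the adjusted threshold was 3.18% with shS100A10_5 and 0.189% with shS100A10_1. At an unadjusted p under 0.05, 7 of the 19 were lower and 0 higher with shS100A10_5, against 10.3% and 10.7% of all probe sets. With shS100A10_1 the median was -0.02, and RPS6KA5 fell by 1.08 (limma, adjusted p = 0.039). It encodes the nuclear kinase MSK1, and its fall is not read here as a change in mTORC1 or S6 kinase signalling. Of 37 genes of rRNA processing and assembly (medians -0.01 with shS100A10_5 and -0.06 with shS100A10_1), NMD3, the export adaptor of the large subunit, rose with shS100A10_5 (0.80; adjusted p = 0.0404). None of 15 genes of RNA polymerase I transcription passed by limma (median -0.19 with shS100A10_5 and -0.03 with shS100A10_1). There POLR1H had -0.79 (adjusted p = 0.0712) with shS100A10_5, and POLR1F had 0.69 (0.082) with shS100A10_5 and 0.82 (0.202) with shS100A10_1; at an unadjusted p under 0.05, 2 of the 15 were lower and 1 higher with shS100A10_5 (10.3% and 10.7% of all probe sets), and 1 lower and 1 higher with shS100A10_1 (4.16% and 4.28%). Of 9 genes of ribosomal stress and p53 (medians 0.32 and 0.13), CDKN1A fell with shS100A10_5 (-1.57; adjusted p = 0.00902), and MDM2, the partner of free RPL11, had 0.79 (0.104) and 0.70 (0.428).

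**Figure D5:**
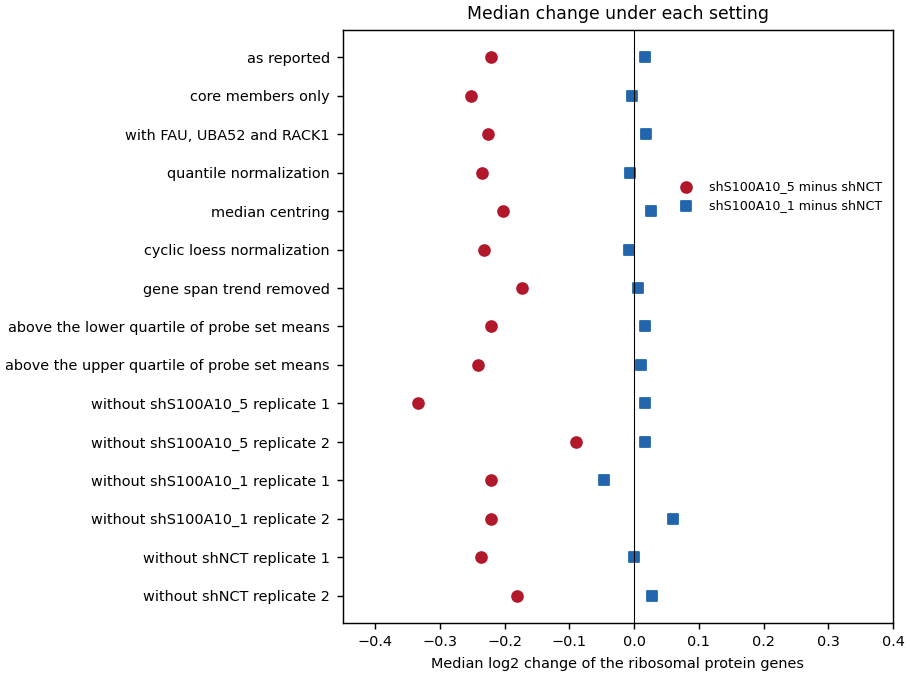
Median log2 change of the ribosomal protein genes against shNCT under each setting, circles for shS100A10_5 and squares for shS100A10_1. The circles lie between -0.33 and -0.09, with both ends reached by leaving out 1 of the 2 shS100A10_5 arrays, and the squares between -0.05 and 0.06.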

How the data were processed

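Total RNA was labelled with biotin for cartridge arrays, per the labels' protocols. The deposited values are normalized intensities on a linear scale, 1 for each probe set on each array, and come from Transcriptome Analysis Console, per the submitters' processing notes. Its normalization method and the array's build were not given in the sources used here. No probe set had a coefficient of variation over 50% between the 2 arrays of a group, so wider spreads are absent from the table. Platform annotation gave 15674 of 16965 probe sets 1 symbol, 0 several and 1291 none; all 55 members matched RefSeq.

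Intensities were converted to log2. Using limma 3.58.1 (R 4.3.3), lmFit and eBayes estimated the 3 group means from the 6 arrays together (3 residual and 7.16 prior degrees of freedom), two-sided, with Benjamini-Hochberg adjustment over all probe sets and a threshold of 0.05. The fit was checked on simulated data. Precision is limited by the number of arrays. Members and gene lists were chosen with earlier results of these data known, so no test was made over a list. Genes were named by rule: fixed stalk, MDM2-binding, anaemia and paralog genes, the 3 largest changes each way per subunit and comparison, the 3 brightest and dimmest per subunit, and from other lists those past the threshold (or the 2 smallest p). RPL29, RPL10A, RPL21, RPL37, MDM2, the markers other than LYZ and the genes in counts of 5 or fewer were added after their values were seen. Alternatives covered normalization, filters, the variance prior, weights, the replicate block, the arrays fitted and the members.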

Additional observations from a re-analysis of the deposited data

How the results depend on the processing

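The median change of the ribosomal protein genes with shS100A10_5 kept its negative sign under every setting run. It ran from -0.33 to -0.09 when 1 array was left out, the smallest (-0.089) without shS100A10_5 replicate 2, and that with shS100A10_1 ran from -0.05 to 0.06. With each array left out, the members past the adjusted threshold numbered 0 to 5 for shS100A10_5 and 0 to 1 for the difference between the hairpins, with 5 and 1 reached without shS100A10_5 replicate 1; the all-probe-set counts ran from 3 to 994 for shS100A10_5 (main 539), 8 to 16 for shS100A10_1 (main 32), 7 to 656 for the difference (main 494) and 6 to 44 for the mean of both hairpins (main 52). The number of members called with shS100A10_5 was 2 of 53 above the lower quartile of probe set means (RPS14 and RPL27), against 952 of 12723 probe sets. It was 4 of 50 above the upper quartile (with RPL22L1 and RPL11), against 733 of 4241. When the variance prior followed intensity it was 9 of 55, against 1454 of 16965. All members called were lower. For the difference the number was 1 of 50 above the upper quartile (RPS14), against 524 of 4241, and 3 of 55 with that prior. For the mean of both hairpins it was 1 of 55 with that prior (RPL22L1). All-probe-set counts for shS100A10_5, shS100A10_1, the difference and the mean were 952, 60, 791 and 85 above the lower quartile, 1454, 98, 1144 and 218 with that prior, and 242, 89, 287 and 79 with array weights. The mean gave 22 above the upper quartile, and fits with only the groups compared gave 16 for shS100A10_1 and 291 for the difference. The causes of these differences in count were not tested. With the replicate number as a block the counts were 625, 33, 561 and 60, with 0 members in each. The replicate numbers share no stated origin. Between groups, the replicate differences correlated at -0.03 (shS100A10_5 and shNCT), -0.02 (shS100A10_1 and shNCT) and 0.19 (shS100A10_5 and shS100A10_1) over all probe sets. Over the 55 genes these correlations were -0.14, -0.07 and 0.33. Without detection calls, dim paralogs cannot be told from background.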

Other observations

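The table looks bounded by replicate agreement. The largest coefficient of variation between the 2 arrays of a group was 49.99% with shS100A10_5, 49.8% with shS100A10_1 and 49.8% with shNCT over 16965 probe sets, and 0 exceeded 50% in any group. Over the ribosomal protein genes the median was 13.8%, 4.60% and 3.85% in those groups, and over all probe sets 11.96%, 8.38% and 8.08%. By this measure the genes were tighter than the table as a whole with shS100A10_1 and shNCT, and not with shS100A10_5. They are also bright, 50 of 55 lying above the upper quartile of probe set means. The standard deviation of the replicate difference in log2 leaves out a shift common to all genes. Over the 55 genes it was 0.22, 0.12 and 0.14 in those groups. Over probe sets above that quartile it was 0.33, 0.17 and 0.17, and over all 0.36, 0.29 and 0.29. The part of intensity was not tested.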
